A study of Mus musculus with 34 samples.

Results

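The response to dexamethasone (Dex) was compared between mouse cells whose glucocorticoid receptor carried alanine in place of 1 proline (P631A) and cells whose receptor carried it in place of another, further along the protein (P643A). The comparison took 12 of the 34 libraries of the series, chosen by their labels, in 4 groups of 3: P631A with vehicle, P631A with Dex, P643A with vehicle and P643A with Dex. Per the labels, all 12 came from C127 adenocarcinoma cells in which the receptor's own gene was knocked out (GRKO) and which carried a GFP-tagged mouse receptor (GFP-mGR). The cells spent 24 h in medium with charcoal-stripped serum, which removes steroid hormones, and were then given vehicle or 100 nM Dex for 2 h before total RNA was sequenced. The labels name neither clones nor the promoter that drives the tagged receptor, so what a substitution does and what its line does cannot be told apart. Separate cultures behind the replicates are not stated either, and p-values then measure only the spread among these libraries, which may be technical.

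The glucocorticoid receptor (gene Nr3c1) is a hormone-activated transcription factor. It waits in the cytoplasm with heat-shock proteins, binds cortisol, corticosterone or Dex through its ligand-binding domain, moves to the nucleus, and there binds palindromic DNA elements or other DNA-bound factors such as AP-1. Both prolines lie in the ligand-binding domain, and the series is about how receptor molecules assemble into dimers and larger groups. Early genes induced in many tissues include the clock repressor Per1, the anti-inflammatory leucine zipper protein Tsc22d3, the kinase Sgk1 and the co-chaperone Fkbp5, which restrains the receptor itself.

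Exon counts recovered from the deposited values summed to 20.6 to 31.5 M a library, and 12993 genes were tested. Levels are given as normalised counts (a count over the library's size factor within its line), and a gene was called when its adjusted p (limma, Benjamini-Hochberg) was under 0.05. The receptor message, Nr3c1, was not called in any comparison. It stood at 6981, 6556 and 6733 with vehicle and at 6595, 7002 and 6963 with Dex in the P631A line. In the P643A line it stood at 6173, 6061 and 6164 with vehicle and at 6142, 6160 and 6168 with Dex, so that the vehicle level of P643A minus P631A was -0.13 on the log2 scale when all 12 libraries shared size factors. Counts of this gene cannot separate the tagged message from what the knocked-out gene may still make, so they do not check the knockout. Epithelial markers were weak for cells labelled adenocarcinoma: 4 of 8 reached a mean of 10, Krt8, the highest, averaged 34.1, and Cldn4 was at 0 in every library, while the collagen gene Col1a2 averaged 75017. On shared size factors the 8 epithelial markers summed to 136 to 163 with vehicle and 77.6 to 124 with Dex in P631A, and to 74.8 to 98.1 and 88.5 to 96.1 in P643A. Fibroblast markers summed to 83137 to 83933 with vehicle and 78351 to 81585 with Dex in P631A, and to 70656 to 71945 and 67058 to 68996 in P643A, so that no groups overlapped. Nearly all of these sums came from Col1a2. Means ran from 210 to 269 for Col1a1, 170 to 312 for Col3a1 and 374 to 474 for Pdgfra. They ran from 2.82 to 6.46 for Dcn and from 0.989 to 2.06 for Lum. Endothelial markers summed to 93.0 to 112 and 82.8 to 94.7 in P631A and to 111 to 118 and 110 to 124 in P643A. Muscle markers were lower in P643A with vehicle (254 to 283) than in either P631A group (301 to 346 and 289 to 364), with 276 to 310 in P643A with Dex. Sums of the immune and adipocyte markers overlapped between all groups. The part of these shifts in the results was not tested. No marker of the 6 cell types examined was called in any comparison.

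Dex raised many of the same genes in both lines, by less in P631A. In the P643A line 237 genes rose (1.82% of those tested) and 99 fell (0.762%). In the P631A line 56 rose (0.431%) and 13 fell (0.1%). The authors' deposited table called 408 genes in P643A and 39 in P631A. The difference between the responses was called for 66 genes. For 60 of them (0.462% of those tested) the change was more positive in P643A, and for 6 (0.0462%) more negative. All 60 had risen in P643A, and 22 of them had also risen in P631A. With 3 Dex and 3 vehicle libraries a line, all Dex libraries lay above all vehicle libraries for 60 of these 60 genes in P643A and for 34 in P631A. Over all genes tested the shares were 9.78% and 5.72%. The 60 were called from these same libraries for a larger rise in P643A, so these counts describe them and test nothing. The spread between replicates was wider in P631A (median residual SD 0.068 on the log2 scale, against 0.0513 in P643A, over the 10395 genes averaging 100 or more). Replicate 1 of P631A with Dex lay farthest from its group mean of the 12 libraries (root mean square deviation 0.093 on the log2 scale, against 0.0533 to 0.0817 for the others). Without it the difference was called for 90 genes, 69 more positive and 21 more negative in P643A, and 63 of these were among the 66. P631A then had 100 calls and P643A 427. Fitted alone, the P631A line gave 28 calls and the P643A line 586, so the ratio of the counts depends on how the spread is shared. Without replicate 2 of P631A with vehicle the difference was called for 120 genes, and without replicate 1 of P643A with Dex for 43. The P631A calls fell to 37 without its vehicle replicate 3 and to 39 without its Dex replicate 2.

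The genes called in either line were then followed in the other; the lines share no library. Of the 237 genes that rose in P643A, 210 (88.6%) had a positive change in P631A as well, against 48.1% of all genes tested with the same sign in both lines. Their median log2 change was 0.38 in P643A and 0.12 in P631A, and their summed log2 change in P631A came to 35.8% of that in P643A. Choosing genes by their P643A call favours large estimates there, so the reverse was also taken. Of the 56 genes that rose in P631A, 53 had a positive change in P643A, and there the median was larger, 0.55 against 0.36. Calls in both lines were made for 55 genes, which is 79.7% of the P631A calls and 16.4% of the P643A calls. All 55 moved the same way, 50 higher and 5 lower, and 53 had the smaller change in P631A. By size of the P643A change, that share was 32.4% for the 65 risen genes with a log2 change under 0.25 in P643A and 38.5% for the 35 with a change of at least 1. Among genes that fell in P643A it was 23.3% for the 43 with a change under 0.25 in size and 27.1% for the 45 between 0.25 and 0.5. For the 10 between 0.5 and 1 it was 2.14%, and 5 of these 10 had a negative change in P631A. The size classes use the same P643A values as the share, and the shares were not tested against each other.

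**Figure D1:**
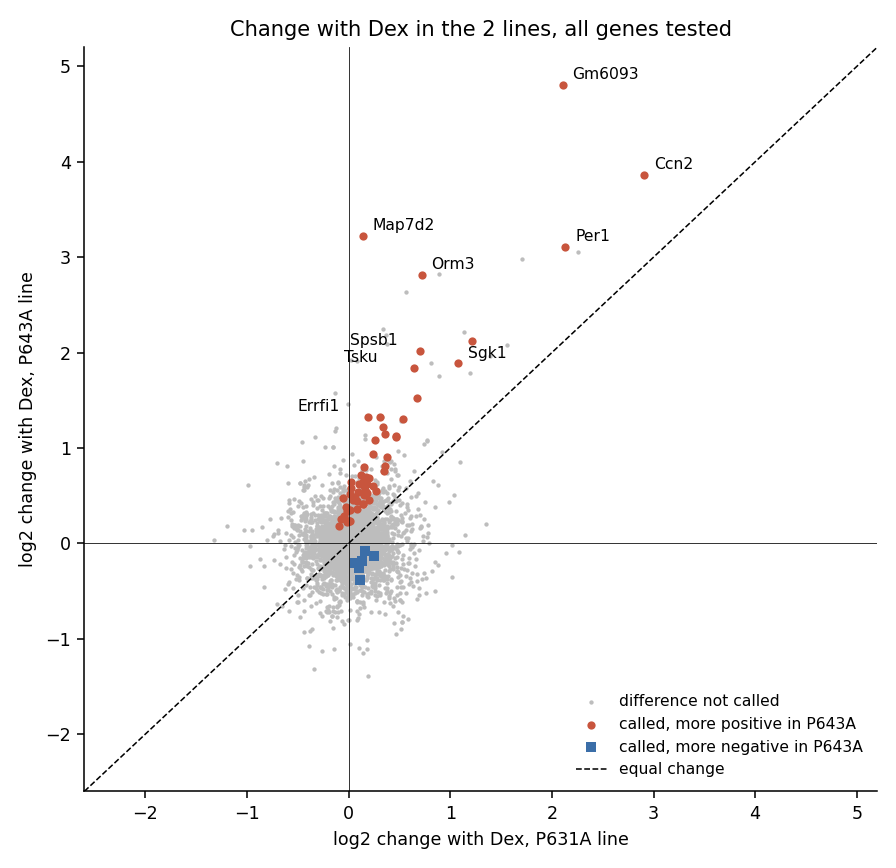
Log2 change with Dex in the P631A line (x axis) against that in the P643A line (y axis) for the 12993 genes tested, each point a gene. The 60 genes called as more positive in P643A lie above the dashed line of equal change, and the 6 called as more negative lie below it.

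The 300 bases around the transcription start (250 before and 50 after, from RefSeq on GRCm38.p6, which is mm10) were matched for 10058 of the 12993 genes tested and 47 of the 60 genes. They were searched on both strands for a receptor element core (GNACA, any 3 bases, TGTNC), an AP-1 site (TGANTCA), a cyclic AMP response element (TGACGTCA, which the AP-1 letters do not match) and a TEAD site (GGAATG). The receptor core was in 2 of the 47 windows (4.26%) and in 0.398% of all windows. The AP-1 site was in 6 (12.8% against 4.77%), the cyclic AMP element in 3 (6.38% against 3.25%) and the TEAD site in 6 (12.8% against 12.1%). The AP-1 letters are loose, since the usual site has C or G in the middle. In the windows of Orm3 and Klf9 they matched TGAATCA. Among all genes that rose in P643A, which include the 60, the receptor core was in 3.33% of 180 windows and the AP-1 site in 8.89%. Among those that rose in P631A the shares were 2.56% and 15.4% of 39 windows. These are counts of letters near the start only, and distal elements were not searched. Shown here are the windows of the 2 genes with the receptor core, Map7d2 and Gm6093, and of 2 genes with the cyclic AMP element, Errfi1 and Arl4d. Capitals mark the motifs, and the 4 were picked after their values were seen.
Map7d2: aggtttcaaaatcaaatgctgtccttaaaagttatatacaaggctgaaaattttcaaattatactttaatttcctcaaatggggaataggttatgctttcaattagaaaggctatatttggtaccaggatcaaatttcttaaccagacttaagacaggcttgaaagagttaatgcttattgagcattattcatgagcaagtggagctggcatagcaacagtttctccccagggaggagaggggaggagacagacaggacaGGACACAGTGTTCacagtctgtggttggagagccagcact
Gm6093: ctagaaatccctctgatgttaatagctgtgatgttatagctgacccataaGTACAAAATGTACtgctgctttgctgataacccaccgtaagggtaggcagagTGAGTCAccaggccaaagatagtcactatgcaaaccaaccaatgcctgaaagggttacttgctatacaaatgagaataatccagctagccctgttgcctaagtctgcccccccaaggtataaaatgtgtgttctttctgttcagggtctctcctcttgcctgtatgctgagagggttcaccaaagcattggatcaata
Errfi1: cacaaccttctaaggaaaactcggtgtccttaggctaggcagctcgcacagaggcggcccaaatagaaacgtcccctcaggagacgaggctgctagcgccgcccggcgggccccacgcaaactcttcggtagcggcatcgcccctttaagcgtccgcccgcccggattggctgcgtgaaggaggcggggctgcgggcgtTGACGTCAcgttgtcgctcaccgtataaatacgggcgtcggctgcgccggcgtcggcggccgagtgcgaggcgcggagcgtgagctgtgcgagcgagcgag
Arl4d: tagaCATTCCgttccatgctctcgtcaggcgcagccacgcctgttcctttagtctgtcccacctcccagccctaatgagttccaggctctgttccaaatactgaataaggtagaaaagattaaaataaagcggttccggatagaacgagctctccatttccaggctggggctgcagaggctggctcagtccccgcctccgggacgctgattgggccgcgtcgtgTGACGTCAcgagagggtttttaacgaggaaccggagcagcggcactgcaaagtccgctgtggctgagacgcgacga
The Map7d2 window is chrX:159458875-159459174 on the plus strand, and its receptor core begins 10 bases after the start. That of Gm6093 is chr13:33569268-33569567 on the minus strand, with the core 200 and an AP-1 site 148 bases before a start that lies 448 bases from the counted transcript's. The Errfi1 window, chr4:150854820-150855119 on the plus strand, has its cyclic AMP element 51 bases before the start. The Arl4d window, chr11:101665291-101665590 on the plus strand, has one 26 bases before the start and a TEAD site 246 bases before it.

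More of the glucocorticoid-induced genes rose in P643A than in P631A. Of 28 such genes listed, 25 passed the filter on low counts; 20 rose in P643A and 12 in P631A, none fell, and 14 were called as rising more in P643A. The list was drawn up with results of these data known. Its median log2 change was 0.70 in P643A and 0.29 in P631A, and its median difference was 0.52; over all genes tested these medians were all 0.00. The difference was positive for 24 of the 25.

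Per1 (chr11:69098949-69109957, plus strand), whose protein represses the clock, had vehicle levels of 337, 334 and 317 and Dex levels of 1471, 1394 and 1474 in P631A. In P643A it went from 340, 379 and 392 to 3134, 3211 and 3253. On size factors shared by the 12 libraries its level, P643A minus P631A, was 0.18 on the log2 scale with vehicle and 1.15 with Dex. Its log2 change came to 2.13 ± 0.05 (SE) in P631A and 3.11 ± 0.05 in P643A, a difference of 0.98 ± 0.07 (adjusted p = 1.26e-07). Ccn2 (chr10:24595442-24598682, plus strand), a matrix-associated growth factor, went from 146, 113 and 120 to 1012, 1021 and 821 in P631A. In P643A it went from 119, 132 and 115 to 1741, 1777 and 1810. It had the largest change of the list in both lines, 2.91 ± 0.09 and 3.86 ± 0.09, and the changes differed by 0.95 ± 0.13 (adjusted p = 0.000184).

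Tsc22d3 (chrX:140539529-140548571, minus strand) had vehicle levels of 728, 701 and 651 and Dex levels of 1538, 1535 and 1756 in P631A. Its P643A levels were 785, 763 and 739 with vehicle and 3221, 3356 and 3350 with Dex. On shared size factors its level, P643A minus P631A, was 0.15 on the log2 scale with vehicle and 1.05 with Dex; the difference in log2 change was 0.90 ± 0.07 (adjusted p = 2.56e-07). Sgk1 (chr10:21994666-21999902, plus strand), a kinase that regulates ion channels, stood at 1947, 2089 and 2153 with vehicle and at 5270, 4080 and 3851 with Dex in P631A. In P643A it stood at 2837, 2959 and 2799 with vehicle and at 10541, 10651 and 10578 with Dex. Its vehicle level was already higher in P643A, by 0.49 on the log2 scale with shared size factors, and its changes were 1.08 and 1.89, a difference of 0.81 ± 0.10 (adjusted p = 8.94e-05). Replicate 1 of P631A with Dex was the highest of its group, and without it the difference was 0.94.

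Some genes that rose in P643A were not called in P631A. Errfi1 (chr4:150855070-150868889, plus strand), an inhibitor of the epidermal growth factor receptor, stood at 514, 598 and 555 with vehicle and 634, 641 and 623 with Dex in P631A. In P643A it stood at 478, 466 and 493 with vehicle and at 1235, 1132 and 1234 with Dex. The P631A groups did not overlap, yet the change of 0.19 ± 0.06 was not called (adjusted p = 0.267), while that in P643A was 1.32 ± 0.06 and the difference 1.13 ± 0.08 (adjusted p = 6.67e-08). Glul (chr1:153899929-153909723, plus strand), glutamine synthetase, had overlapping groups in P631A, 1881, 1818 and 1854 with vehicle and 1924, 1820 and 1878 with Dex. In P643A it went from 1738, 1683 and 1796 to 2491, 2487 and 2471. The change was 0.02 in P631A and 0.51 in P643A, and the difference of 0.50 ± 0.05 was called (adjusted p = 7.99e-06). Fkbp5 (chr17:28398753-28486149, minus strand) went from 2268, 2319 and 2321 to 2790, 2529 and 2472 in P631A, a change of 0.17 that was not called (adjusted p = 0.0752) except without replicate 3 of P631A with Dex (adjusted p = 0.0252). In P643A it rose by 0.70, from 2489, 2454 and 2593 to 4098, 4139 and 3966, and the difference was 0.52 ± 0.06 (adjusted p = 1.95e-05).

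Spsb1, an adaptor of a ubiquitin ligase, and Tsku, a small secreted proteoglycan, had the largest differences called in the list. Spsb1 rose from 210, 188 and 204 to 319, 363 and 303 in P631A and from 234, 236 and 229 to 982, 930 and 925 in P643A. Its difference was 1.31 ± 0.10 (adjusted p = 1.57e-07). Tsku rose from 1018, 948 and 925 to 1554, 1504 and 1447 in P631A and from 1168, 1329 and 1164 to 4451, 4247 and 4392 in P643A, a difference of 1.20 ± 0.07 (adjusted p = 3.7e-09). For both genes the Dex levels of P631A lay between the vehicle and Dex levels of P643A. The other list members that rose more in P643A were Arrdc2 (a difference of 0.85), the AMP deaminase Ampd3 (0.79), the transcription factor Klf9 (0.66), the cell-death inhibitor Bcl2l1 (0.65) and the zinc transporter Slc39a14 (0.37). All 5 had also risen in P631A; the Slc39a14 call there (0.17) ended without vehicle replicate 2 or 3 or Dex replicate 2 of that line (adjusted p of up to 0.144). Ddit4, an inhibitor of mTORC1, rose in both lines by 0.29 and 0.35, and its difference of 0.06 was not called (adjusted p = 0.755). Cebpb, Cebpd, Mt1, Lcn2 and Dusp1 rose in P643A and were called neither in P631A nor in the difference. The difference ranged from 0.26 for Dusp1 to 1.94 for Lcn2, whose SE was 0.60. That of Cebpb (0.34) lay near the threshold (adjusted p = 0.0549) and was called under 5 of 22 alternative fits. The Mt1 and Lcn2 differences were called under 2 each. The Dusp1 change in P631A (adjusted p = 0.0548) was called under 2 of 24 such fits. The Cebpd rise ended without replicate 3 of P643A with Dex (adjusted p = 0.0584). Pdk4, Lpin1, Nfkbia, Sulf2 and Rgs2 were called in no comparison, and Mt2, Zbtb16 and Hif3a did not pass the filter.

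**Figure D2:**
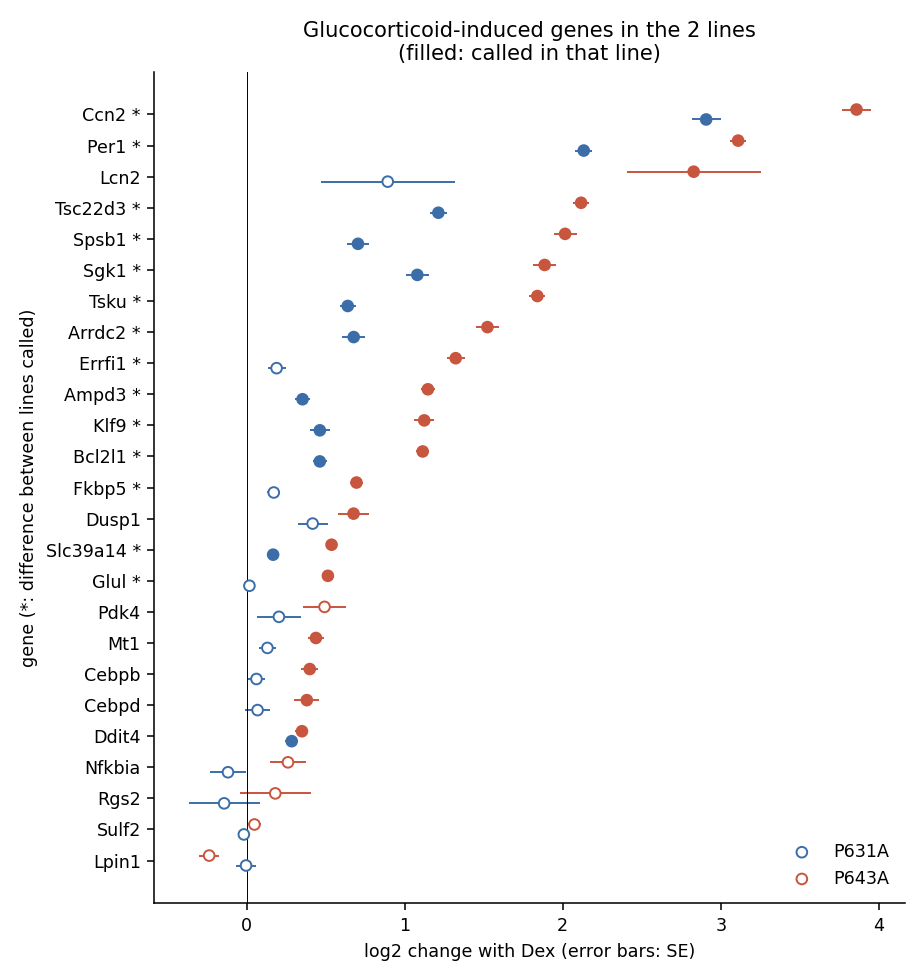
Log2 change with Dex (x axis, error bars SE) of the 25 glucocorticoid-induced genes tested (y axis) in the P631A and P643A lines, n = 3 libraries a group; filled points were called in that line and asterisks mark the 14 genes whose difference was called. The P643A point lies to the right of the P631A point for 24 of the 25 genes, Lpin1 being the exception.

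Genes outside that list reached larger differences. Gm6093, a predicted gene (chr13:33562486-33568869, minus strand), went from 6.52, 9.69 and 6.54 to 38.2, 37.8 and 30.9 in P631A. In P643A it went from 1.98, 3.91 and 3.34 to 112, 106 and 115, a difference of 2.70 ± 0.35 (adjusted p = 0.000136). Its vehicle counts were low, and lower in P643A, so the size of this difference leans on a few reads. Orm3 (chr4:63356162-63359511, plus strand), an acute-phase plasma protein gene, stood at 30.4, 42.0 and 32.7 with vehicle and at 50.9, 63.0 and 59.9 with Dex in P631A. In P643A it rose from 28.7, 27.3 and 25.6 to 207, 175 and 211, a difference of 2.09 ± 0.22 (adjusted p = 7.99e-06). Orm3 has close copies and reads may be shared among them; the same caution holds for Gm6093. Its rise in P631A (0.72, adjusted p = 0.0356) ended in 7 of the 12 fits that left out 1 library, with an adjusted p of up to 0.229.

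Sphk1, the kinase that makes sphingosine-1-phosphate, went from 401, 355 and 331 to 427, 470 and 445 in P631A and from 241, 272 and 220 to 579, 592 and 663 in P643A. Its vehicle level, P643A minus P631A, was -0.55 on the log2 scale, and the difference in change was 1.01 ± 0.12 (adjusted p = 4.29e-05). The small GTPase Arl4d differed by 0.89 ± 0.11 and the glutaredoxin Glrx by 0.83 ± 0.11; neither was called in P631A. Map7d2, which codes for a microtubule-associated protein, is named after its values were seen, since no group reached a mean of 50. It stood at 19.5, 12.9 and 15.9 with vehicle and at 11.0, 21.8 and 22.5 with Dex in P631A, where the groups overlapped. In P643A it went from 2.97, 2.60 and 5.56 to 43.0, 37.5 and 44.1. The difference of 3.09 ± 0.44 was the largest called (adjusted p = 0.000321), and the vehicle level, P643A minus P631A, was -1.85 on the log2 scale.

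**Figure D3:**
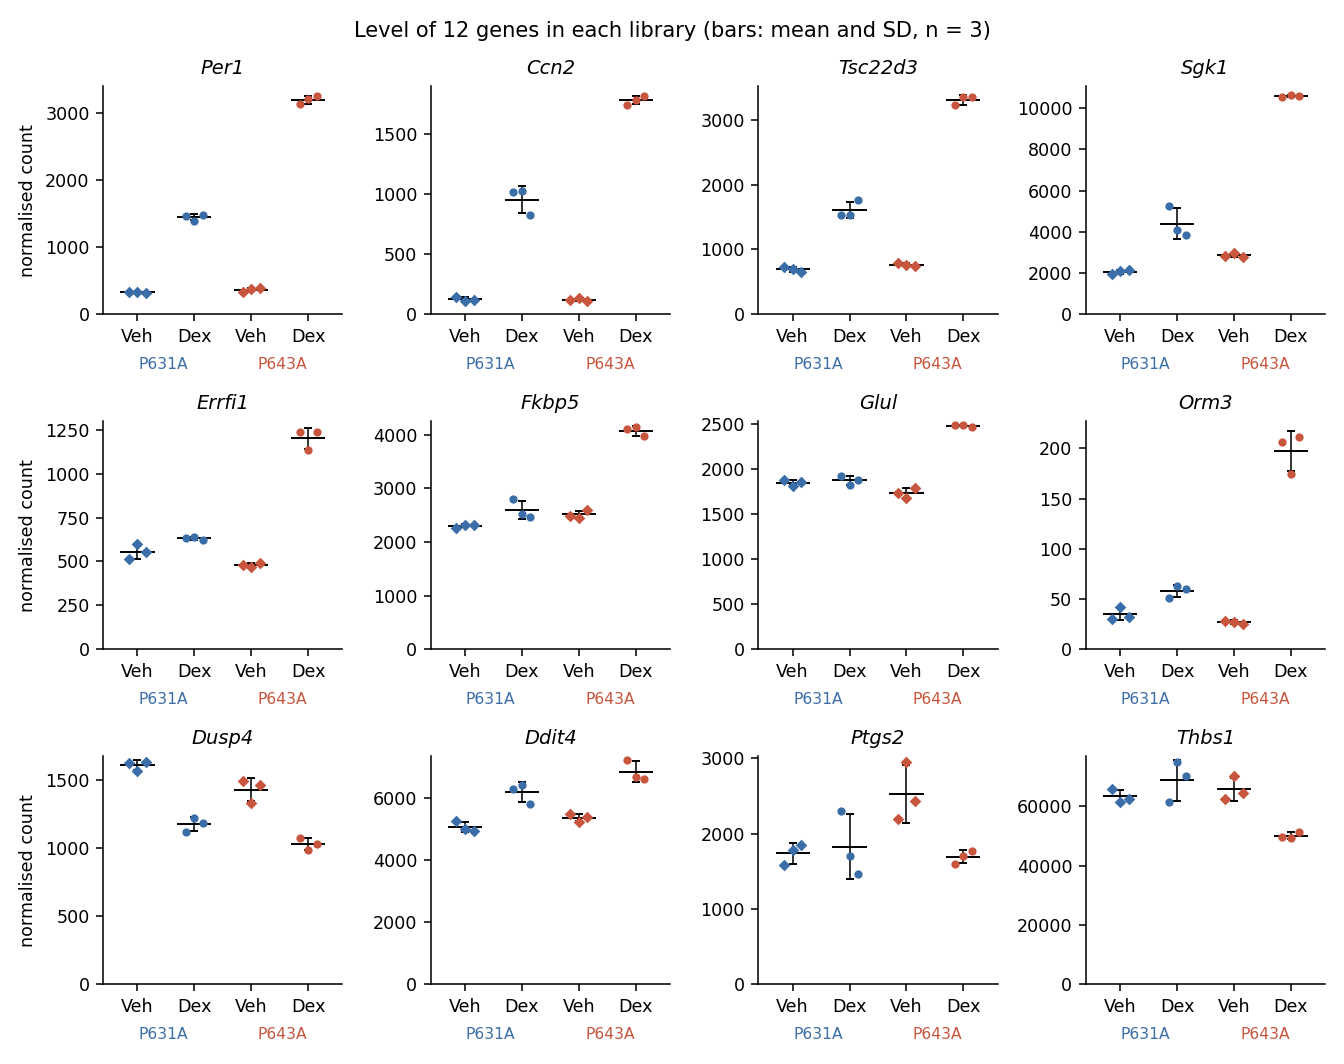
Normalised count (y axis) of 12 genes in each of the 12 libraries, with the mean and SD of each group (n = 3). Per1, Ccn2, Tsc22d3 and Sgk1 rise in both lines and further in P643A, Errfi1, Fkbp5 and Glul were called in P643A and not in P631A and Dusp4 changed by -0.45 and -0.47. For Ptgs2 the Dex libraries of P631A lie on both sides of the vehicle ones, and those of P643A lie below.

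For the genes called in the difference, levels were also set side by side on size factors shared by all 12 libraries. Of the 60 genes with the more positive change in P643A, 59 were counted on the same transcript in both tables. Their vehicle level differed between lines by a median of -0.07 on the log2 scale (range -1.85 to 0.49), and for 44 it lay within 0.2. With Dex the median was 0.46 (range -0.10 to 1.76), and 58 of the 59 were higher in P643A. The genes were picked for this contrast from the same values, so their higher Dex level in P643A largely follows from the choice. The 6 genes with the more negative change were mixed. With vehicle they were higher in P643A by 0.03 to 0.51, and with Dex they ran from -0.45 to 0.26. Thbs1 and Pcdh19 were near each other with vehicle (0.07 and 0.03) and lower in P643A with Dex (-0.45 and -0.29). Crim1, Fmn1 and Epha2 were higher in P643A with vehicle (0.38, 0.38 and 0.27) and near 0 with Dex. Gm6793 was higher in P643A with both. Over the 12633 genes tested with the same counted transcript in both tables, the vehicle levels lay a median of 0.12 apart on the log2 scale. The lines were 2-fold or more apart with vehicle for 0.641% of them. The share of all genes within 0.2 was not counted.

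**Figure D4:**
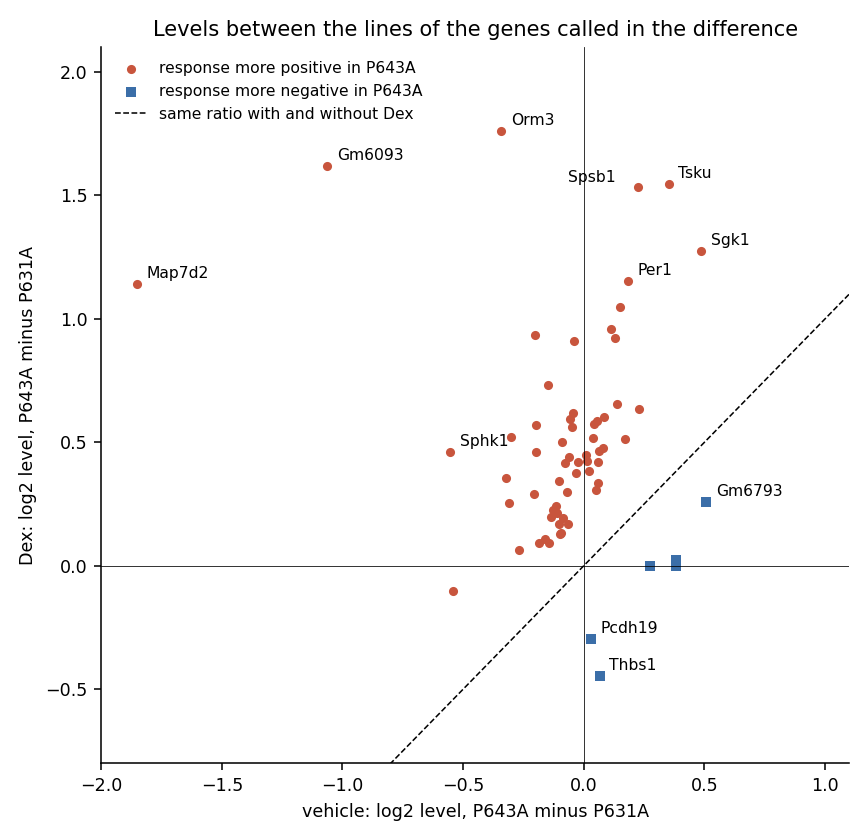
Log2 level of P643A minus P631A with vehicle (x axis) and with Dex (y axis), on size factors shared by the 12 libraries, for the 65 of the 66 genes whose response differed that were counted on the same transcript in both tables, each point a gene. Most of the 59 genes with the more positive response lie near 0 on the vehicle axis and above 0 on the Dex axis, while 3 of the 6 others lie at or near 0 on the Dex axis.

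Those 6 genes were Thbs1, Crim1, Fmn1, Pcdh19, Epha2 and Gm6793. Thbs1 (chr2:118111876-118127133, plus strand), the matrix protein thrombospondin 1, stood at 65798, 61628 and 62604 with vehicle and at 61376, 74874 and 70147 with Dex in P631A. The groups overlapped there through Dex replicate 1 alone. In P643A it fell from 62624, 70128 and 64556 to 49764, 49268 and 51498. The change was 0.11 in P631A and -0.39 in P643A, a difference of -0.50 ± 0.08 (adjusted p = 0.00151). The P631A change was not called, except in 1 fit that left out 1 library (adjusted p = 0.0377). Crim1 (chr17:78200248-78376592, plus strand), a membrane protein that binds bone morphogenetic proteins, rose in P631A from 3819, 3703 and 3801 to 4768, 4500 and 4172. In P643A it stood at 4617, 5401 and 4635 with vehicle and at 4302, 4472 and 4575 with Dex, which was not called. The difference was -0.38 ± 0.07 (adjusted p = 0.015); without replicate 1 of P643A with Dex it was -0.35 and not called (adjusted p = 0.0814). Its rise in P631A (0.25, adjusted p = 0.0332) ended in 7 of the 12 fits that left out 1 library. The formin Fmn1 differed by -0.36 ± 0.07 (adjusted p = 0.00809). The protocadherin Pcdh19 (-0.32), the ephrin receptor Epha2 (-0.27) and Gm6793 (-0.25) lay near the threshold, with adjusted p between 0.0319 and 0.0462. Their calls ended in 7, 8 and 7 of the 12 fits that left out 1 library, with adjusted p of up to 0.175, 0.137 and 0.206.

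Other genes changed by nearly the same amount in both lines. Dusp4 (chr8:34807610-34819894, plus strand), a phosphatase that switches off MAP kinases, fell from 1627, 1566 and 1628 to 1121, 1222 and 1186 in P631A and from 1492, 1332 and 1462 to 1073, 986 and 1032 in P643A. The changes were -0.45 ± 0.05 and -0.47 ± 0.05, and the 95% interval of their difference ran from -0.16 to 0.12. Arrdc3, an arrestin-related adaptor, rose by 0.44 and 0.50 (interval of the difference -0.14 to 0.26). Angptl4, an inhibitor of lipoprotein lipase, rose by 0.36 and 0.34 (interval -0.19 to 0.16). The other 5 of the 8 genes called in both lines with the smallest differences were Chst1, Zfp862-ps, Zc3h12c, Eps8 and Arl14ep. These 8 were picked for their small difference, so the intervals describe them and test nothing. That of Arrdc3 reaches past 0.23, the size of the smallest difference called. Among these 8, the P631A calls of Chst1, Zc3h12c, Arl14ep, Eps8 and Zfp862-ps each ended without at least 1 library, at adjusted p of up to 0.315, 0.197, 0.118, 0.0664 and 0.0876, and the P643A call of Chst1 ended in 2 such fits (up to 0.0575).

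The other gene lists held fewer calls than the glucocorticoid-induced list. Over all genes tested, 1.82% rose and 0.762% fell in P643A, and 0.431% rose and 0.1% fell in P631A. The difference was called as more positive in P643A for 0.462% and as more negative for 0.0462%. These lists too were chosen with results of these data known, so their shares test nothing. In the insulin and PI3 kinase list (17 tested), 6 rose in P643A and 4 in P631A, and Irs1, the insulin receptor substrate, fell in both, by 0.26 in P631A and by 0.36 in P643A. Irs2 and the regulatory subunit Pik3r1 rose in both lines (0.29 and 0.53; 0.25 and 0.36). Sgk1 and Foxo3, a transcription factor that insulin restrains, rose more in P643A; the Foxo3 difference of 0.36 ended in 3 of the 12 fits that left out 1 library (adjusted p of up to 0.0596). The list's median difference was 0.06. Of 15 clock genes, Per1, Per2 and Nfil3 rose in both lines and Bhlhe41, a clock repressor, in P643A (0.35, against 0.01 in P631A). The Per2 rise in P631A (0.41) ended without vehicle replicate 2 or 3 or Dex replicate 2 of that line (adjusted p of up to 0.153). The Bhlhe41 difference of 0.34 ended in 5 of the 12 such fits (adjusted p of up to 0.164). The clock activators Clock and Arntl were not called.

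The list of TEAD targets and CCN genes (16 tested) also holds Tead4, itself a TEAD factor. Ccn2 and Tead4 rose more in P643A, and Crim1, which was not called in P643A, had the more negative change there. Tead4, a DNA-binding partner of YAP, rose by 0.37 and 0.91. The list's median difference was -0.10, and Ankrd1, a muscle ankyrin-repeat protein gene, fell in P643A by 0.37, a call that ended without replicate 2 of P643A with vehicle (adjusted p = 0.054). The BCL2 list (12 tested) also holds Bcl6, a transcriptional repressor that is not a member of the BCL2 family. Bcl2l1 and Bcl6 rose in both lines, and the pro-apoptotic Bcl2l11 fell in P643A, by 0.34. Of 19 Kruppel-like, Id and Myc factors, Klf9, Id1 and Id2 rose in P643A and Klf3, Klf4 and Klf5 fell there; only Klf9 was called in the difference. Id1 rose in P631A too, by 0.48, a call that ended in 9 of the 12 fits that left out 1 library (adjusted p of up to 0.228), as the Bcl6 call there did in 7 (up to 0.227) and the Bcl2l11 call in P643A in 4 (up to 0.12).

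Lower levels with Dex were mostly found in P643A. Of the 99 genes that fell there, 73 (73.7%) had a negative change in P631A, 5 were called lower there and 3 were called in the difference; their summed change in P631A came to 19.9% of that in P643A. Prostaglandin synthase Ptgs2 fell in P643A from 2198, 2954 and 2432 to 1601, 1709 and 1771, by 0.57. In P631A it went from 1584, 1788 and 1855 to 2309, 1708 and 1472, with the Dex libraries on both sides of the vehicle ones. The difference of -0.62 ± 0.16 was not called (adjusted p = 0.113), and the P643A fall was not called without replicate 2 of P643A with vehicle (adjusted p = 0.0583). Inhba, which codes for an activin subunit, fell by 0.51 in P643A and changed by 0.01 in P631A, and its difference was not called either (adjusted p = 0.105). Under 1 of the 22 alternative fits each, the Ptgs2 and Inhba differences were called. Among 20 AP-1, NF-kB and chemokine genes, Fosl2 and Ptgs2 fell and Jund, Tnfaip3 and Cxcl1 rose in P643A, none was called in P631A and none in the difference. The Cxcl1 rise (0.59) ended in 7 of the 12 fits that left out 1 library (adjusted p of up to 0.248). In the ERK feedback list (13 tested), Dusp4, Spry1 and Phlda1 fell in P643A and Dusp4 in P631A, with a median difference of -0.02; the Spry1 and Phlda1 calls ended in 5 and 6 of those fits (adjusted p of up to 0.189 and 0.188). In the TGF-beta list (17 tested), Tgfbr3 rose and Thbs1 and Inhba fell in P643A, and Thbs1 was the member called in the difference.

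Few members of the remaining lists were called, and the shares over all genes given above apply here too. Of 21 receptor, chaperone and coregulator genes, Fkbp5 was the one called, and the median difference of the list was -0.03. Among 20 cholesterol genes, Insig1 fell in P643A by 0.19, and none was called in the difference. Ddit3 fell and Herpud1 rose in P643A among 15 ER stress genes, also with none called in the difference. The Insig1, Ddit3 and Herpud1 calls each ended in 3 to 4 of the fits that left out 1 library, at adjusted p of up to 0.149. The 15 G2/M genes and the 15 housekeeping genes held no call in any comparison, with median differences of -0.03 and 0.02. In a list of RNase P, MRP and nuclear noncoding RNA genes (7 tested), which also holds the protein-coding Lars2, Rprl3, a copy of the RNase P or MRP RNA gene family, fell in P631A by 0.54. Lars2, the mitochondrial leucyl-tRNA synthetase, rose in both lines by 0.38 and 0.45, and none of the list was called in the difference.

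**Figure D5:**
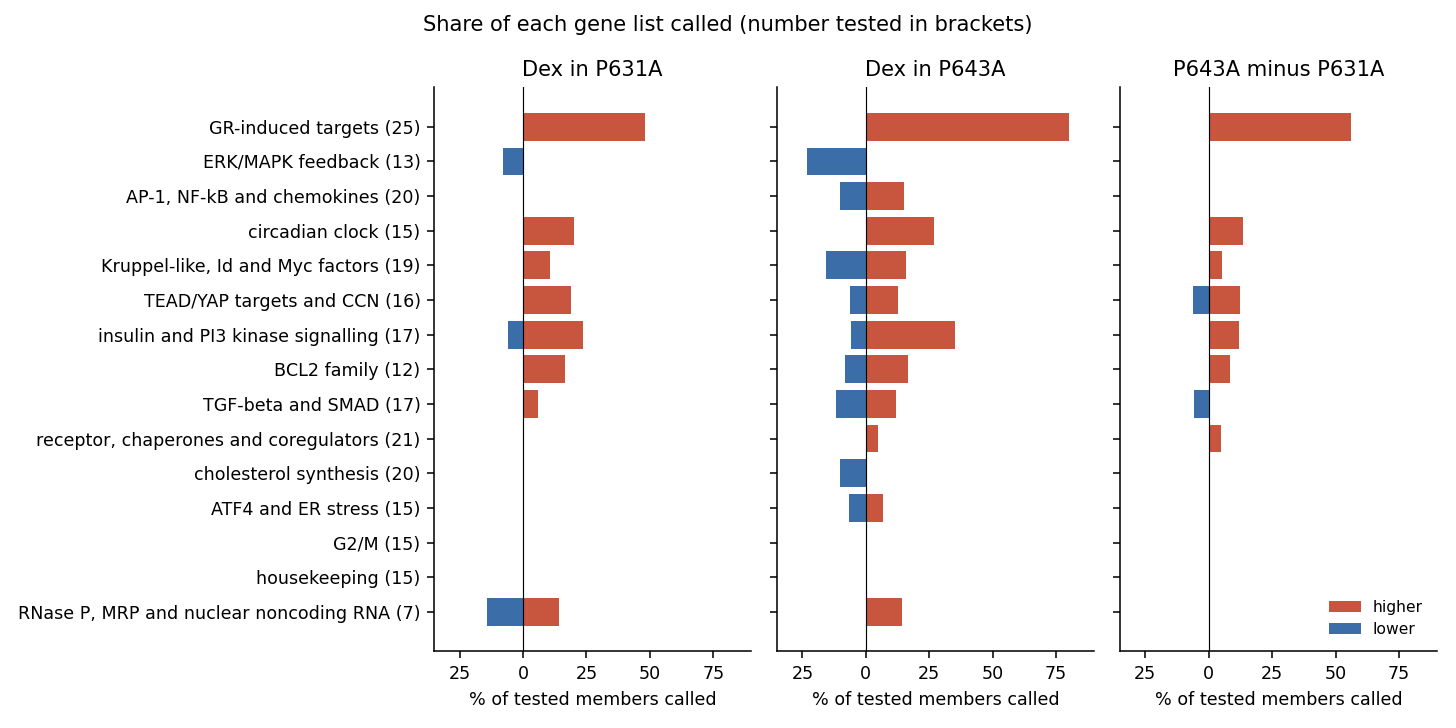
Percent of the tested members of each gene list (y axis, number tested in brackets) called higher (red, to the right) or lower (blue, to the left) with Dex in P631A, with Dex in P643A, and in the difference between them. The glucocorticoid-induced list has the longest bars in all 3 panels, with 12, 20 and 14 of 25 members called higher.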

How the data were processed

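Total RNA of 12 libraries was analysed, 3 for each combination of line (P631A, P643A) and treatment, grouped by the labels. The submitters' processing notes name cutadapt, STAR 2.7.0f, HOMER 4.10.4 and the build mm10. Per the file headers, exon reads of RefSeq transcripts were counted with 1 transcript kept per gene, and no strand option is given, so reads of genes that overlap on opposite strands cannot be told apart (6 of the 66 genes called in the difference have such a neighbour: Aldh1a1, B3galnt2, Fmn1, Hmga2, Pcdh19 and Plin4). The library columns hold the authors' log2 values, normalised table by table with a transform not given in the sources used here. The deposited p-values of the authors were used only to count their calls.

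These values turned out to be pulled toward the mean of each gene, more in one table than in the other, so counts were recovered from them by fitting that shrinkage. Of values with a mean of 100 to 1000, 99.9% in both lines came out within 0.1 of a whole number, also among genes kept out of the fit. Log2 changes from these counts differed from the authors' by at most 0.0121 in P631A and 0.0197 in P643A at a mean of at least 100. The unit was taken as log2 throughout, and no count model was used. The tables keep different transcripts for 1601 genes, which were joined by symbol; their levels are not comparable between lines, and 1 of the 66 genes is among them.

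Counts over the size factors of each table, plus a pseudocount of 1, were log2 transformed. Genes with at least 10 in at least 3 libraries were fitted by limma 3.58.1 in R 4.3.3 (lmFit on 4 group means, eBayes with trend), with 2-sided tests, Benjamini-Hochberg adjustment over all 12993 genes and a threshold of 0.05. The difference is the P643A change minus the P631A change. The steps were tested on simulated data. Named genes were, among those called in the difference with a mean of at least 50 in a group, the 12 largest in each direction (6 were lower), the 8 called in both lines with the smallest difference, called members of the gene lists, and Nr3c1. The members and lists were chosen with earlier results of these data known. No sample pair within a group agreed within sampling noise. Libraries held 28.1 to 43.1 M reads per the file headers, and Rn45s took 13.8 to 15.9% of exon counts; intervals cover the spread between libraries only. Alternatives were the deposited log2 values, other pseudocounts (0.5, 5), filters (none, 50) and size factors, line weights, voom, a replicate block, each line alone and each library left out. Promoter windows were read from RefSeq (GRCm38.p6). Results for some list members are not reported here.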

Additional observations from a re-analysis of the deposited data

Results flagged for a closer look

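The contrast of the changes with Dex was itself tested in limma, and 66 genes passed an adjusted p of 0.05 (Benjamini-Hochberg over all genes tested). Their Dex response differed between the lines. Among the named genes the P643A change exceeded the P631A change on the log2 scale by 2.70 for Gm6093, 2.09 for Orm3, 1.31 for Spsb1, 1.20 for Tsku, 1.13 for Errfi1 and 1.01 for Sphk1. The excess was 0.98 for Per1, 0.95 for Ccn2, 0.90 for Tsc22d3, 0.89 for Arl4d, 0.85 for Arrdc2, 0.83 for Glrx, 0.81 for Sgk1 and 0.79 for Ampd3. It was 0.66 for Klf9, 0.65 for Bcl2l1, 0.53 for Tead4, 0.52 for Fkbp5, 0.50 for Glul, 0.37 for Slc39a14, 0.36 for Foxo3 and 0.34 for Bhlhe41.

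In the other direction, the P643A change minus the P631A change was -0.50 for Thbs1, -0.38 for Crim1, -0.36 for Fmn1, -0.32 for Pcdh19, -0.27 for Epha2 and -0.25 for Gm6793. No group had more than 3 libraries, so no value of a single library was tested against its group.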

How the results depend on the processing

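The 66 calls in the difference became 42 with the replicate number as a replicate block, and all 42 were among the 66. The P631A calls went from 69 to 35 under the block, and the share of P643A calls with the same sign in P631A from 84.2% to 88.0%. In P631A the correlations showed no pairing by number. Deviations of same-numbered vehicle and Dex libraries correlated at -0.41, -0.12 and -0.24 there, and no library correlated best with its own number. In P643A they correlated at 0.12, 0.08 and 0.04. Each vehicle library there correlated best with the Dex library of its own number. Dex replicate 3 correlated best with vehicle replicate 2 (0.05). With 3 libraries a group, such correlations cannot tell whether the samples of either line are paired. Fitted alone, P631A gave 28 calls on the recovered and 28 on the deposited scale, and P643A gave 586 and 607. With a spread for each line the same-sign share was 77.0%. Leaving out 1 library gave 43 to 120 calls in the difference, 37 to 100 in P631A and 232 to 427 in P643A, and a same-sign share of 74.5 to 91.8%; the cause was not tested.

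The deposited values gave 89 calls in the difference, 64 of them shared with the 66; other scales, filters and size factors gave 57 to 72. No named gene's called change reversed under any alternative. Of the 28 named genes called in the difference, 21 kept the call under all 22 alternatives; Crim1, Fmn1, Pcdh19, Epha2, Gm6793, Foxo3 and Bhlhe41 lost it under at least 1. Depth limits low genes: Lcn2, Map7d2 and Gm6093 rest on few vehicle reads.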

Other observations

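The genes called in P631A and not in P643A were 14, and they are named here after their values were seen. The snoRNA gene Snord13 had the largest change, -1.33 in P631A and 0.03 in P643A, from a vehicle mean of 18.7. Rprl3 changed by -0.54 and -0.12, Tmem86a by -0.40 and -0.21 and the developmental factor Eya1 by -0.30 and -0.12. Higher in P631A were Tiparp, an ADP-ribosyltransferase induced by the aryl hydrocarbon receptor (0.46 and 0.16), Ndufaf2, an assembly factor of respiratory complex I (0.45 and -0.04), and Cpox, an enzyme of haem synthesis (0.26 and 0.04). The others were B3gnt2, B4galt5, Crim1, Eyelinc18, Fez2, Lrrc8d and Tmem9. Of the 14, Crim1 was the gene also called in the difference. For the others, a call in P631A alone does not show that the lines respond differently. When the P631A line was fitted alone, 28 of its 69 calls remained.

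Of the 60 genes called as rising more in P643A, 38 were not called in P631A. Some of these, named after their values were seen, lie outside the gene lists. The integrin subunit Itga5 changed by 0.05 in P631A and 0.46 in P643A, the small GTPase Rhob by -0.06 and 0.48, the transglutaminase Tgm2 by 0.07 and 0.47 and the focal adhesion protein Tns2 by 0.14 and 0.64.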
